A study of Mus musculus with 3 samples.

Results

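The genes of the mouse left ventricle were compared between a pool labelled Egln1_Tie2Cre and its control pool, labelled Egln1_floxed. Every gene whose 2 FPKM values averaged 1 or more was taken, which gave 11978 of the 14827 genes in the comparison. FPKM is the number of sequenced fragments scaled by transcript length and by the size of the library. The mice were C57BL6J; the control mice carried Egln1 alleles flanked by Cre target sites and are called wild type in the series' design text, and the other mice carried Cre driven by the Tie2 promoter as well. RNA of 3 mice was pooled for each library, so each side is 1 library. Replicate error is therefore unknown for every difference below, and p-values were not computed. A library from mice labelled as lacking both Egln1 and Hif2a through Tie2Cre is given beside some results and shares the same control. Age and sex of the mice are not in the labels.

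Egln1 encodes PHD2, an oxygen-dependent prolyl hydroxylase that marks the alpha subunits of hypoxia-inducible factors (HIF) for destruction. Tie2, encoded by Tek, is an endothelial receptor, and its promoter is active in endothelial cells and in part of the blood-forming lineage, so cardiomyocytes keep Egln1 in such mice. The HIF alpha subunits bind DNA with a partner at sites that hold the core letters ACGTG or GCGTG, and their known targets include genes of glycolysis, lactate export and vessel growth. A processed pseudogene is a copy of a messenger RNA that was written back into the genome, so it lacks introns and can match its parent gene letter for letter. Short reads from such a parent and its copy cannot be told apart where the letters are the same.

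Genes were kept in classes by whether another gene in the GENCODE M21 annotation holds a near-identical stretch of their transcript, called a copy here (at least 90% identity over 150 bases and 50% of either transcript, or over 300 bases and 10% of the transcript). Egln1 stood at 129.5 FPKM in the floxed library and at 95.7 in the Egln1_Tie2Cre library (1.35-fold lower). In the library labelled Egln1_Hif2a_Tie2Cre it was 129, level with floxed although that label names Egln1 too, and whether the label holds was not tested. Tek was 16.5 and 23.6, and Epas1, which encodes Hif2a, was 77.4, 65.02 and 54.5 in the same order. Whole-ventricle FPKM of Egln1 mixes deleted and undeleted cells, so it is a weak check of the label. Of 13 cardiomyocyte markers 12 were in the comparison (Ryr2 was not listed), and Tnnt2, cardiac troponin T, stood at 7761 and 8947 FPKM, so the labelled tissue carried its defining messages in both pools. In whole tissue, fewer cells of a type and less RNA per cell cannot be told apart.

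Pairs of a parent gene and its pseudogene are shown first, because the largest differences between the libraries lay in such pairs. Each stretch is 80 coding bases, 5′ to 3′ on the transcript, with every base that differs between parent and copy in capitals. Fabp3 encodes the fatty acid binding protein of heart muscle, Rps23 a protein of the small ribosomal subunit, and Atp5l a subunit of mitochondrial ATP synthase.
Fabp3: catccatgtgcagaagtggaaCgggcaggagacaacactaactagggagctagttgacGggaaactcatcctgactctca
Fabp3-ps1: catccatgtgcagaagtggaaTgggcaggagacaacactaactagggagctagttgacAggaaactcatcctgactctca
Rps23: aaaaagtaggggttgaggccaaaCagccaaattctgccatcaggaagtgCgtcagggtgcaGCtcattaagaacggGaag
Rps23-ps: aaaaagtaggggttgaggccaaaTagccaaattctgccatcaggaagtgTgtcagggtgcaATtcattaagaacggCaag
Atp5l: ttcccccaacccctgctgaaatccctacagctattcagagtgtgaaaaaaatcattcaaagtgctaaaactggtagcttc
Gm10221: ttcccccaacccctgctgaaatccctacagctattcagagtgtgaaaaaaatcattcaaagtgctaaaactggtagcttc
The sequences are from the GENCODE M21 transcripts (GRCm38). Fabp3 lies on the plus strand of chr4:130308595-130315463 with 4 exons, and Fabp3-ps1 on the minus strand of chr10:86731987-86732388 with 1 exon, and they differ at 3 of 399 aligned coding bases. Rps23 (chr13:90922958-90924950, plus strand, 5 exons) and Rps23-ps (chr3:62923807-62924233, minus strand, 1 exon) differ at 11 of 427. Atp5l (chr9:44912557-44920742, minus strand) and Gm10221 (chr5:24581554-24581862, minus strand, 1 exon) are identical over all 309 coding bases.

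In the floxed library nearly all FPKM of these pairs lay on the parent, and in the Egln1_Tie2Cre library it lay mostly on the pseudogene. Fabp3 was 4115 FPKM in the floxed and 315 in the Egln1_Tie2Cre library, while Fabp3-ps1 was 2.27 and 2449. The sum of the pair was 4117 and 2764, a ratio of 0.671. Rps23 was 306 and 1.16 and Rps23-ps 2.16 and 437, with a ratio of the sums of 1.42. For Atp5l the values were 1295 and 12.8, for Gm10221 13.9 and 1037, and the ratio of the sums was 0.802. The library labelled Egln1_Hif2a_Tie2Cre looked like the floxed one here, with Fabp3 at 5047, Fabp3-ps1 at 1.93, Rps23 at 469.9 and Atp5l at 1924. The Egln1_Tie2Cre library therefore stood apart from both others in how FPKM was divided within these pairs. Because FPKM is scaled by length, a fragment counts for more on a short pseudogene than on a longer parent. The Fabp3 transcript has 823 bases and Fabp3-ps1 402, so sums of FPKM are not sums of fragments. FPKM does not show how reads were divided between a parent and its copies. Whether the libraries were aligned with the same settings is not given in the sources used here. In this library the values of parents, ribosomal proteins and other copied genes may therefore not measure their RNA levels.

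The same held for most of the pseudogenes with a highly similar parent. Of 427 pseudogenes in the table, 255 were higher by 2-fold or more in the Egln1_Tie2Cre library and 56 lower by 2-fold or more. The filter kept 276 of them, of which 172 were below an FPKM of 1 in the floxed library and passed through the other library alone; the 212 higher and 22 lower among the 276, and their median log2 ratio of 3.56, are for that reason a description only. Of those 276, 58 carry -ps in the gene symbol, and most of the rest have Gm numbers. Summed FPKM of the kept pseudogenes was 999.7 in the floxed library and 26181 in the Egln1_Tie2Cre library. Of the pseudogenes at an FPKM of 100 or more, 2 were in the floxed library and 65 in the Egln1_Tie2Cre library. Over the pseudogenes with a mean FPKM of at least 1 in the comparison of Egln1_Hif2a_Tie2Cre with floxed, the summed FPKM was 788 and 812.

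The difference followed how closely a pseudogene matches its parent. Of the 330 pseudogenes with a parent in the table, 172 match it at 99% identity or more, and 149 of those were higher by 2-fold or more in the Egln1_Tie2Cre library, with a median ratio of 92.4. Among 77 pseudogenes at 97 to 99% identity, 59 were higher by 2-fold or more. At 95 to 97% the count was 17 of 35, and at 90 to 95% it was 5 of 46, with 14 lower by 2-fold or more. Most pseudogenes have a single exon, 325 of the 427. These counts include the genes that the filter removes.

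The parent genes mirrored their pseudogenes. Of the 218 parents whose pseudogenes summed to an FPKM of at least 1 in either library, 189 were lower while their pseudogenes were higher. Most of these groups reached that level in the Egln1_Tie2Cre library, so this count too is a description. The median ratio of Egln1_Tie2Cre to floxed FPKM was 0.283 for the parent, 81.9 for its pseudogenes and 0.814 for the sum of both. The pseudogenes held a median of 0.551% of the summed FPKM in floxed and 65.4% in Egln1_Tie2Cre ventricle. These are shares of FPKM and not of fragments, because parents and pseudogenes differ in length. For the library labelled Egln1_Hif2a_Tie2Cre that median was 0.197%, with genes not listed there counted as 0. Tpt1, a translationally controlled growth protein, was 1360.3 and 133, and Tpt1-ps3 was 7.93 and 1418, so the sum was 1368 and 1551. Atp5g1, the ring subunit of ATP synthase, kept more of its own FPKM, with 1782 and 1075, beside 0.222 and 1413 for Gm10039. Hadhb, a subunit of the mitochondrial trifunctional protein of fatty acid oxidation, was 805 and 63.4, and Gm13910 was 1.67 and 411. The sums of parent and pseudogenes were within 2-fold in all but 55 of the 218 groups, 11 higher by 2-fold or more and 44 lower by 2-fold or more.

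**Figure D1:**
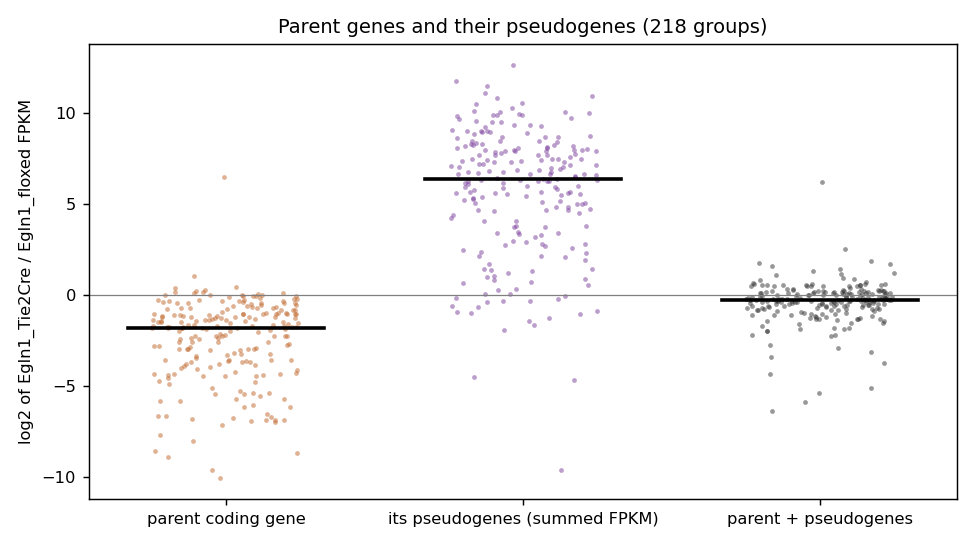
Log2 ratio of Egln1_Tie2Cre to Egln1_floxed FPKM for 218 parent coding genes, for the summed FPKM of their pseudogenes and for both summed, with 1 point per group and a black bar at the median. Parents lie mostly below 0 and pseudogenes mostly above. The sums have a median ratio of 0.814, with 11 higher and 44 lower by 2-fold or more.

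Counted over all genes kept, 618 were higher by 2-fold or more (5.16%) and 674 lower by 2-fold or more (5.63%) in the Egln1_Tie2Cre library, and these calls fell unevenly over the classes. Coding genes for which no copy was found numbered 8955; 294 of them passed 2-fold upward (3.28%) and 216 downward (2.41%), and their median log2 ratio was 0.03. Copied coding genes numbered 2201, of which 46 passed upward and 376 downward, around a median of -0.11. The share lower grew with the number of copies, from 9.93% of 1088 genes with 1 copy to 38.5% of 200 genes with 11 copies or more. Genes with a pseudogene among their copies were lower by 2-fold or more in 336 of 1589 cases. Genes with a coding gene but no pseudogene among their copies were so in 32 of 237. Of 375 genes with neither kind of copy, 8 were lower by that much (2.13%). In the comparison of Egln1_Hif2a_Tie2Cre with the same control, 19 of 2209 coding genes with a copy were lower by 2-fold or more. The authors' deposited table gives a q-value of 0.05 or less for 69 genes (0.465% of all listed), 58 of which are coding genes with a copy that were lower.

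**Figure D2:**
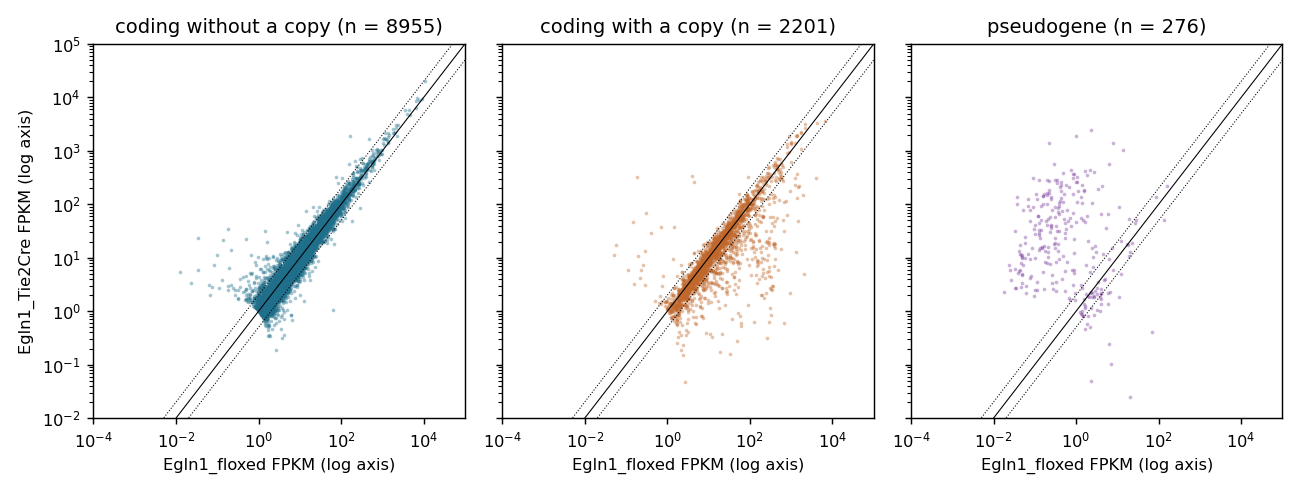
FPKM of each kept gene in the Egln1_floxed (horizontal) and Egln1_Tie2Cre (vertical) libraries, on log axes, for 8955 coding genes without a copy, 2201 with a copy and 276 pseudogenes. The solid line marks equal values and the dotted lines 2-fold; 226 of the pseudogenes lie above the solid line and 50 below it, and 376 of the copied genes lie below the lower dotted line.

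Cytosolic ribosomal proteins, which build the subunits that translate messenger RNA, were the family most touched. Of 82 kept members 75 have a copy, and 60 of those 75 were lower by 2-fold or more, with a median log2 ratio of -4.26. Rpl23a was 658 and 0.611 FPKM, Rps29 954 and 2.20, and Rps6 292 and 0.620. Of the 4 members without a copy 0 were lower by 2-fold or more, and Rpl8 among them was 386 and 567. Respiratory chain and ATP synthase subunits divided the same way, with 12 of 34 copied members lower by 2-fold or more and 0 of 49 without a copy. In 46 of the 2201 coding genes with a copy the difference ran the other way by 2-fold or more, 9 of them unnamed Gm or Rik genes, such as Gm2000 (0.189 and 322) and Gm11808 (3.86 and 341), named here after their values were seen. Gapdh, a glycolytic enzyme with many copies, was 2058 and 4.98, and the 22 pseudogenes matched to it summed to 12.4 and 19.8.

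Messages of the mitochondrial genome were lower as well. All 11 listed were below their floxed value, with a median log2 ratio of -0.64. mt-Nd1, a complex I subunit, was 26341 and 18420.0, and mt-Rnr2, the large ribosomal RNA, was 8395 and 5979.6. The 2 lowest were mt-Nd3 (21464 and 9.70) and mt-Co2 (51974 and 29.96), which have near-identical copies among annotated pseudogenes. The closest to floxed was mt-Nd6 (9669 and 9268). In the library labelled Egln1_Hif2a_Tie2Cre, 8 of 10 were above floxed. The 11 summed to 194048 FPKM in the floxed and 77508 in the Egln1_Tie2Cre library, and FPKM values are shares of a library. These sums include mt-Co2 and mt-Nd3, which were not kept apart although they have copies, and much of the difference lies in them.

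The following results concern coding genes without a copy, for which the search found no near-identical stretch in another annotated gene. Copies outside the annotated genes were not searched, so this class may still hold copied genes. The lowest copy-free member of the E2 ubiquitin-conjugating enzymes had a log2 ratio of -4.97. Whether that gene has a copy that was missed was not tested. Transcript length moved with the ratio: the 1792 shortest of these genes (252 to 1841 bases) had a median log2 ratio of 0.16 and the 1791 longest (5223 to 106824 bases) one of -0.05. The same sets had 0.17 and -0.17 in the library labelled Egln1_Hif2a_Tie2Cre over floxed. Family medians away from 0 are therefore also given centred, that is, after subtracting the running median of genes of like length.

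Named genes had to reach an FPKM of 5 on their higher side, and 40 were taken in each direction from 4760 genes whose exons overlap no other coding gene. Folds in the 40 highest ran from 2.82 to 116 with a median of 4.67, and those in the 40 lowest from 2.03 to 9.30 with a median of 2.70. The library labelled Egln1_Hif2a_Tie2Cre was nearer on the log scale to floxed than to Egln1_Tie2Cre for 34 of the 40 highest and 32 of the 40 lowest. It shares the floxed library with the comparison that chose these genes, so this is a description. Tnfrsf9, Timp1 and Cpxm2 among the highest and Ephb1 among the lowest lie within the span of another coding gene, and their values are uncertain.

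Among secreted and matrix genes, the higher group included neuropeptide, enzyme and matrix genes. Nts, which encodes neurotensin, was 0.946 FPKM in the floxed, 10.5 in the Egln1_Tie2Cre and 0.574 in the library labelled Egln1_Hif2a_Tie2Cre. Ltbp2, a binding protein of latent TGF-beta that associates with microfibrils, was 1.62, 6.18 and 1.05. Col27a1, a fibrillar collagen, was 1.41, 7.01 and 1.33. All of these were high in the Egln1_Tie2Cre library alone. Gpx3, the secreted glutathione peroxidase, was 85.3, 245 and 107, and Leprel1, a collagen prolyl 3-hydroxylase, was 1.28, 5.31 and 1.82.

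Genes of the muscle cell and of its metabolism were also among the highest. Neb, nebulin, the giant thin-filament protein of skeletal muscle, was 1.48, 10.7 and 1.69 FPKM in the order above. Myot, myotilin of the Z-disc, was 14.1, 74.7 and 18.1. Bdh1, the mitochondrial enzyme that oxidises the ketone body 3-hydroxybutyrate, was 75.1, 328 and 32.5, so the library labelled Egln1_Hif2a_Tie2Cre lay below the control. Atf3, a stress-induced transcription factor, was 1.66, 7.60 and 5.63, nearer to Egln1_Tie2Cre in the library labelled Egln1_Hif2a_Tie2Cre. Hspa1l, a heat shock protein of the Hsp70 group, was 1.07, 6.03 and 1.29.

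Membrane and signalling genes made up a further group. Slco2a1, the prostaglandin transporter, was 0.824, 8.30 and 0.848 FPKM. Mctp1, a calcium-binding membrane protein, was 0.661, 11.2 and 0.263, and Ackr2, a receptor that scavenges chemokines, was 0.638, 5.25 and 0.595. In each the control and the library labelled Egln1_Hif2a_Tie2Cre were both low. Acer2, an alkaline ceramidase of the Golgi, was 7.43, 28.9 and 3.81, and Tnfrsf12a, the receptor of the cytokine TWEAK, was 28.4, 89.6 and 73.9. Slc16a3, which exports lactate and is a known HIF target, was 0.875, 7.43 and 18.7, and it alone of the 40 highest had its top value in the library labelled Egln1_Hif2a_Tie2Cre.

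The genes with the lowest ratios had varied roles. Car4, a membrane-bound carbonic anhydrase of capillaries, was 16.6 FPKM in the floxed, 5.28 in the Egln1_Tie2Cre and 22.1 in the library labelled Egln1_Hif2a_Tie2Cre. C1qtnf9, a secreted protein related to adiponectin, was 23.9, 6.73 and 33.6. Tcf15, a transcription factor of heart endothelium, was 24.2, 10.9 and 35.7. These were low in the Egln1_Tie2Cre library alone. Cpt2, the inner-membrane carnitine palmitoyltransferase, was 107, 49.2 and 92.2, and Pdk4, the kinase that switches off pyruvate dehydrogenase, was 125, 55.03 and 93.9. Pdp2, a phosphatase that switches that enzyme on, was 8.53, 3.12 and 3.85. Cdkn1c, a cell cycle inhibitor, was 12.9, 3.85 and 16.2, and Clec3b, tetranectin, was 46.8, 18.7 and 59.3. Hmcn2, a large matrix protein, was 6.03, 0.847 and 6.34, and Pla2g5, a secreted phospholipase, was 19.3, 5.54 and 18.7.

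**Figure D3:**
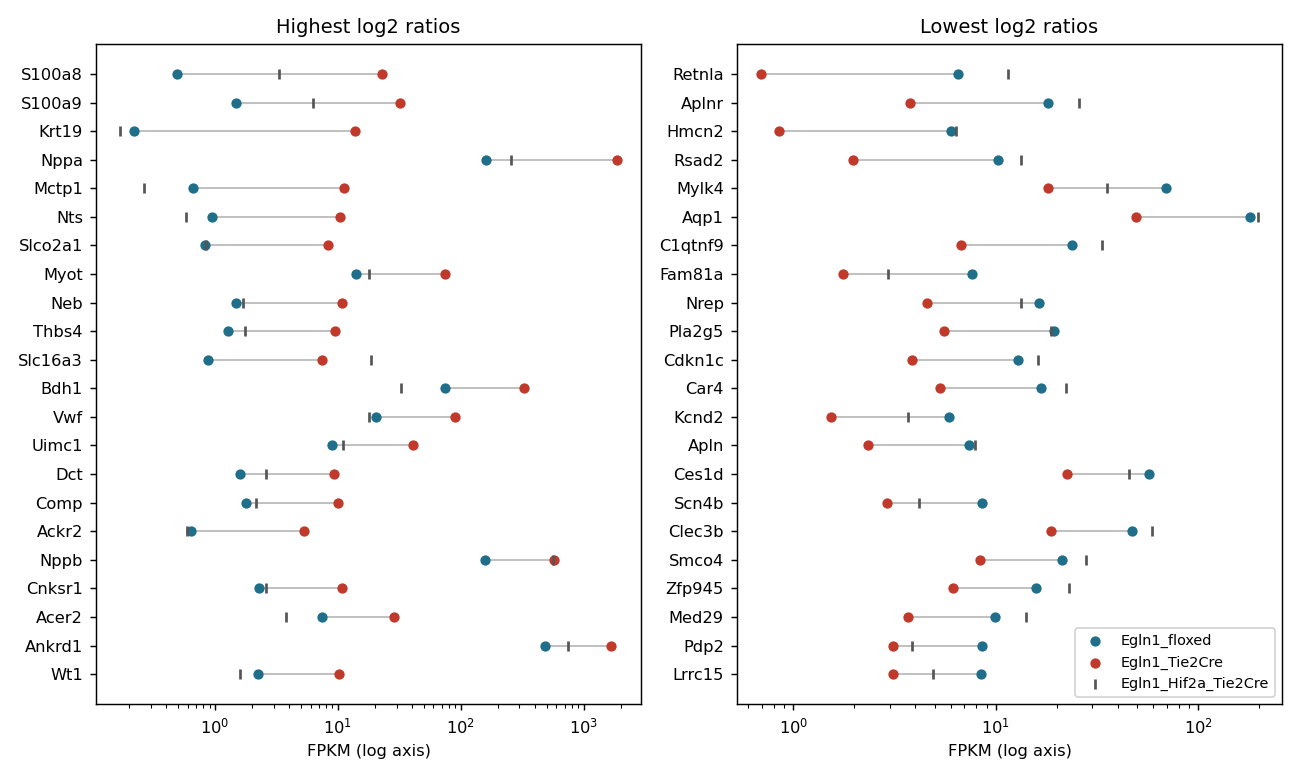
FPKM (log axis) of the 22 genes with the highest and the 22 with the lowest log2 ratio among named genes that overlap no other coding gene, as points for Egln1_floxed and Egln1_Tie2Cre and a bar mark for Egln1_Hif2a_Tie2Cre. The bar mark lies close to the floxed point for most of them and beyond the Egln1_Tie2Cre point for Slc16a3.

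Promoters of 3 of these genes are printed because the study concerns HIF: Slc16a3, the natriuretic peptide gene Nppa (160.2 and 1858 FPKM) and the water channel gene Aqp1 (179 and 49.4). Capitals mark ACGTG or GCGTG on either strand, and the first of these is also part of the E-box CACGTG. The sequences run from 250 bases before to 50 after the gene start and are from RefSeq (GRCm38.p6).
Slc16a3: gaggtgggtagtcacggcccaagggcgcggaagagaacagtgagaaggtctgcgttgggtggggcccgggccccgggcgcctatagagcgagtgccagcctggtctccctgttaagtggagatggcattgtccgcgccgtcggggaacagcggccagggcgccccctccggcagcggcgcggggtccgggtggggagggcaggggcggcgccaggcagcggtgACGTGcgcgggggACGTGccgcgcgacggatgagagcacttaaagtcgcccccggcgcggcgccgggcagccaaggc
Nppa: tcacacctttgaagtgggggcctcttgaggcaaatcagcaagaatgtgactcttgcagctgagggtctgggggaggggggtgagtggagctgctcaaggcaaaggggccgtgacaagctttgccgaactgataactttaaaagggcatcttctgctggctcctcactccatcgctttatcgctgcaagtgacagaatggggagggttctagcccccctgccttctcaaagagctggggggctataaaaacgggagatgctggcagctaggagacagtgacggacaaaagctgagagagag
Aqp1: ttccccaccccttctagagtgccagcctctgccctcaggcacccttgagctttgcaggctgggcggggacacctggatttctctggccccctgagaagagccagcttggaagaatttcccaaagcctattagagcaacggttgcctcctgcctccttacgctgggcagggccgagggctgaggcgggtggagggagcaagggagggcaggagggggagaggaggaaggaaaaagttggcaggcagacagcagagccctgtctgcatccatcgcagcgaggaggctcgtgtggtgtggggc
Slc16a3 (chr11:120948817-120949116, plus strand) holds 2 matches, and Nppa (chr4:148000472-148000771, plus strand) and Aqp1 (chr6:55336049-55336348, plus strand) hold 0. The core letters occur in 43.8% of all 27025 promoters of this length. Of the copy-free coding genes with a promoter in that set, 64.5% of 6751 hold them, against 56.1% of 223 that were higher by 2-fold or more and 54.2% of 155 that were lower by 2-fold or more. A match is a run of letters and not evidence of binding.

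Gene families were described over coding members without a copy, and 104 of 115 families had at least 5. Of these 104, 15 had a median log2 ratio of 0.2 or more and 7 of -0.2 or less, beside a median of 0.03 for all 8955 genes. The counts below use a fold of at least 1.5, which 10.3% of all copy-free coding genes passed upward and 8.42% downward. Families differ in size and in level, so these are counts and not tests. Large folds were more frequent at low level. At a mean FPKM from 1 to 10, 213 of 4993 copy-free coding genes were higher by 2-fold or more and 187 lower. From 10 to 100 these were 69 and 27 of 3582. The families below were not set against genes of their own level.

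Potassium channels, which set the resting potential and repolarise the heart cell, were lower as a group. Of 25 members 10 were lower by 1.5-fold or more and 0 higher by 1.5-fold or more, 22 lay below their floxed value, and the median was -0.44 (-0.45 after centring by length). Kcnd2, which carries the fast transient outward current, was 5.88, 1.53 and 3.70 FPKM (floxed first, then Egln1_Tie2Cre, then the library labelled Egln1_Hif2a_Tie2Cre, as in the sentences that follow). Kcnj3, a subunit of the acetylcholine-activated channel, was 18.7, 8.02 and 12.7. In both genes the library labelled Egln1_Hif2a_Tie2Cre lay between the others. Kcnip2, the accessory subunit of the transient outward current, was level at 88.6, 88.4 and 89.7. Kcne1, a small subunit that modifies the slow delayed rectifier, had the highest ratio of the family, at 6.90, 9.76 and 9.38. The family's median in the library labelled Egln1_Hif2a_Tie2Cre over floxed was -0.22. Outside the family, Scn4b, a sodium channel beta subunit, was 8.52, 2.89 and 4.19, and Hcn2, a pacemaker channel, was 11.1, 4.82 and 9.29.

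Adrenergic receptors, which receive adrenaline and noradrenaline, were all below floxed, 3 of 5 by 1.5-fold or more, with a median of -0.72 (-0.82 centred). Adra1a, the alpha-1A receptor, was 7.60, 2.95 and 3.70 FPKM, and Adra1b 9.61, 4.97 and 7.64. Adrb1, the main beta receptor of heart muscle, was 7.30, 5.08 and 6.50. Of the 5 adrenergic receptors 2 were lower by 2-fold or more, and of those named here only Adra1a was. Among receptors for lipid mediators, 3 of 8 were lower by 1.5-fold or more and the median was -0.37 (-0.42 centred). Ptgfr, the prostaglandin F receptor, was 1.67, 0.346 and 1.13, and S1pr3, a sphingosine phosphate receptor, 5.53, 2.79 and 6.98. S1pr1, the sphingosine phosphate receptor of endothelium, was 26.7, 18.7 and 35.3, with its highest value in the library labelled Egln1_Hif2a_Tie2Cre.

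Cadherins and protocadherins, which join neighbouring cells, had 8 of 13 members lower by 1.5-fold or more and a median of -0.49 (-0.47 centred). Pcdh1 was 12.1, 5.75 and 8.08 FPKM, and Pcdh12, a protocadherin of endothelium, was 4.84, 2.67 and 5.65. Of the 13 members 12 lay below floxed. Cdh5 of endothelium and Cdh2 of heart muscle were closer to level, at 64.3, 56.9 and 58.1 and at 85.1, 86.1 and 72.6. Without the filter on low values the family median was -0.17. Fibroblast growth factors and receptors went both ways around a median of -0.34 (-0.40 centred), which was -0.06 without the filter. Fgf16, a factor made by heart muscle, was 11.5, 5.95 and 9.64, whereas the receptor Fgfr3 was 3.89, 11.8 and 4.29. In the Wnt family 11 of 13 members lay below floxed with a median of -0.26 both plain and centred, among them the ligand Wnt5a at 3.23, 1.23 and 1.88. Its median was -0.33 in the library labelled Egln1_Hif2a_Tie2Cre over floxed.

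Annexins, which bind membranes in the presence of calcium, were all above floxed, 4 of 7 by at least 1.5-fold. Their median was 0.69 (0.55 after centring by length). Anxa2 was 50.3, 116 and 75.3 FPKM, and Anxa1, an anti-inflammatory member, was 15.5, 27.3 and 19.4. Both had an intermediate value in the library labelled Egln1_Hif2a_Tie2Cre. Apolipoproteins had a median of 0.61 (0.49 centred) over 5 members but went both ways. Of the 5, 3 were higher by 1.5-fold or more and 1 was lower by 2-fold or more. Clu, clusterin, was 242, 499 and 244, and Apoe was 265, 404 and 368.

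Elastic fibre genes had 5 of 16 members higher by 1.5-fold or more and 2 lower by 1.5-fold or more, with a median of 0.32 (0.27 centred). Eln, elastin itself, was 11.5, 32.99 and 15.8 FPKM. Fbln2, fibulin 2, was 33.6, 73.1 and 44.7, and Mfap5, a microfibril protein, 17.8, 38.9 and 23.96. Each was highest in the Egln1_Tie2Cre library. The lower members were Hmcn2 and Emilin2 (20.2, 13.4 and 12.4). Collagens had a median of -0.14 (-0.10 centred) over 21 members, 5 higher by 1.5-fold or more and 1 lower. Col3a1, a main interstitial collagen, was 69.1, 47.1 and 65.5, and Col14a1 was 6.76, 10.6 and 6.01. Serpina3n, a serine protease inhibitor, was 3.01, 8.64 and 1.89.

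Families of the protein and RNA machinery had medians a little above 0. Over all coding genes without a copy the median log2 ratio also differed by level: it was -0.03 at a mean FPKM from 1 to 10, 0.12 from 10 to 100, 0.19 from 100 to 1000 and 0.39 from 1000. The families that follow were not centred by level, so they are not set apart here from other genes of their abundance. Of 32 proteasome subunits and assembly factors without a copy, 30 lay above floxed, 7 by at least 1.5-fold and 0 by 2-fold. Their median was 0.40, and 0.27 with 2 higher by 1.5-fold or more after centring by length, and their median transcript length was 1435 bases. Psma7, a ring subunit, was 104, 164 and 139.7 FPKM and Psma6 112, 176 and 143. Respiratory chain and ATP synthase subunits had a median of 0.30, which was 0.13 after centring by length and 0.37 in the library labelled Egln1_Hif2a_Tie2Cre over floxed. V-ATPase subunits, which acidify lysosomes, had 12 of 14 above floxed and a median of 0.33 (0.24 centred). Spliceosomal proteins had 0.33 (0.16 centred), and translation initiation factors 0.26 (0.20 centred), with 27 of 30 above floxed.

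Other large families were described the same way. None of 43 F-box proteins and none of 41 mitochondrial ribosomal proteins passed 1.5-fold in either direction, though 4 of the latter were lower by that much after centring by length. The mitochondrial carriers of the Slc25 family had 2 of 32 lower and 0 higher, with Slc25a34 at 70.3, 35.2 and 55.9 FPKM. C2H2 zinc finger proteins, the largest family of DNA-binding proteins, had a median of -0.18 (-0.21 centred) over 228 members, with 35 lower by 1.5-fold or more and 6 higher. Zfp945 was 15.8, 6.17 and 22.97, and Zfp605 1.13, 3.05 and 1.10. Nuclear receptors had a median of 0.05 over 28 members, which turned to -0.06 after centring by length and to -0.07 without the filter on low FPKM. Nr4a1, an early response gene, was 5.20, 12.9 and 7.29, while the receptors for mineralocorticoids and glucocorticoids were lower, Nr3c2 at 5.04, 2.42 and 4.74 and Nr3c1 at 21.9, 13.2 and 18.5.

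**Figure D4:**
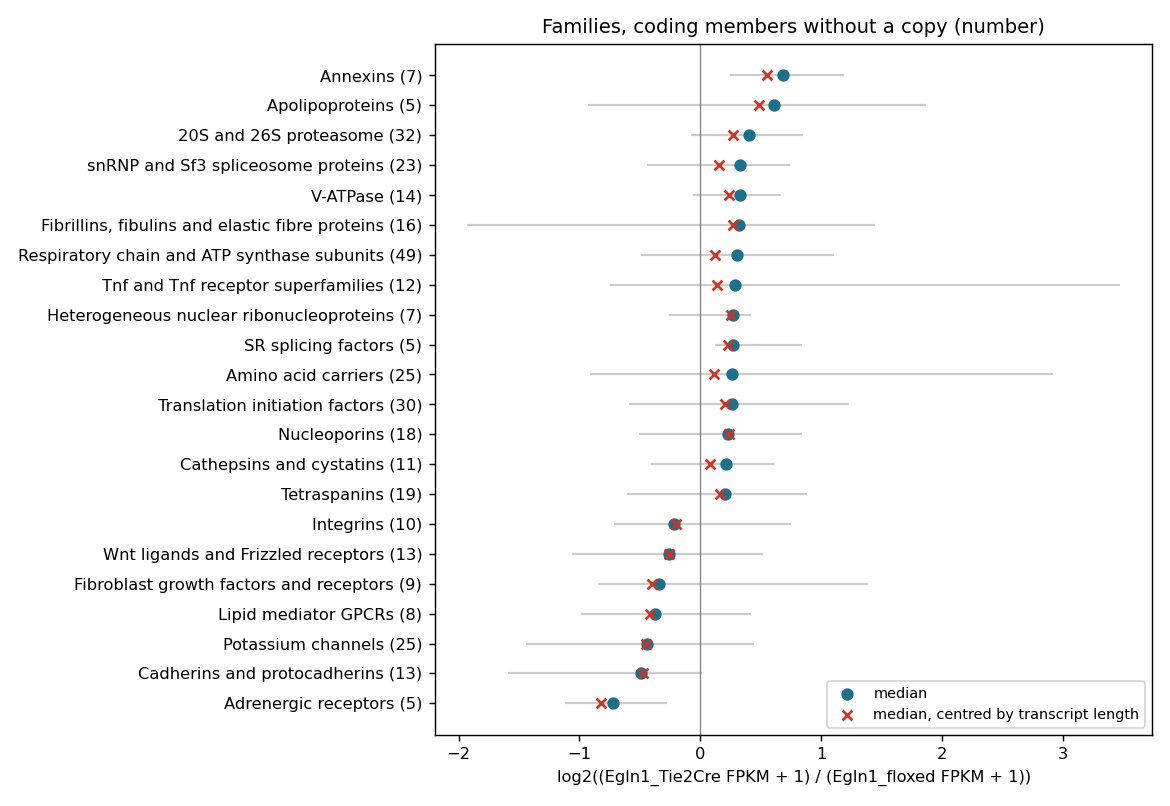
Median log2((Egln1_Tie2Cre FPKM + 1) / (Egln1_floxed FPKM + 1)) of the 22 families with at least 5 copy-free coding members and a median of at least 0.2 in size, with crosses for medians centred by transcript length and grey lines from the lowest to the highest member. Annexins lie highest at 0.69 and adrenergic receptors lowest at -0.72, and the number of members stands beside each name.

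Markers of other cell types moved between the pools and are given here beside the gene results. Atrial markers without a copy summed to 487 FPKM in the floxed, 2516 in the Egln1_Tie2Cre and 624 in the library labelled Egln1_Hif2a_Tie2Cre, and without Nppa to 327, 658 and 368. Of 10 such markers listed, 5 were higher by 2-fold or more and 1 lower by 2-fold or more, and Bmp10 and Dhrs9 were not in the table. The marker lower by 2-fold or more is not named here. Stard10 and Kcna5, also on the atrial list, did not follow either, at 14.01 and 10.6 and at 9.12 and 6.06. The part of atrial tissue in the Nppa, Myl7 and Dkk3 values was not tested.

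Neutrophil markers without a copy summed to 4.97, 61.3 and 12.6 FPKM, with all 6 above floxed. S100a8 and S100a9, which form the calprotectin of neutrophils, were 0.489, 22.7 and 3.32 and 1.47, 31.9 and 6.30. The granule genes Camp, Ltf and Ngp and the surface genes Ly6g and Cxcr2 were not in the table, and Mmp8 was 0.0386 and 0.408. Macrophage and monocyte markers went the other way, with 11 of 12 below floxed and sums of 160, 117 and 207. Of the 12, 2 were lower by 2-fold or more, and the median log2 ratio was -0.37. Retnla, a gene of alternatively activated macrophages, was not on the list. It is named because it was among the 40 lowest ratios, at 6.48, 0.697 and 11.5.

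Epicardial and mesothelial markers summed to 5.19, 27.2 and 7.01 FPKM over 4 copy-free genes, with Krt19 at 0.218, 13.7 and 0.169 and Wt1 at 2.25, 10.2 and 1.60. Wt1 is also made by endothelial cells of the heart. Tbx18 and Aldh1a2 were nearer to level, at 0.657 and 0.913 and at 2.06 and 2.38, and Upk3b and Msln were not in the table. Valve and cartilage markers summed to 8.72, 34.5 and 12.6, of which Cilp, Comp and Thbs4 made up most. The part of such cells in the other gene results was not tested. Endothelial markers summed to 2361, 2935 and 2689 over 18 genes, and without Fabp4, the most abundant, to 1159, 1257 and 1245. Of the 18, 1 was higher by 2-fold or more (Vwf) and 1 lower by 2-fold or more (Aqp1). Vwf also makes up the difference in the endocardial list, whose other members summed to 29.8 and 33.6. Fibroblast markers summed to 916, 1047 and 1049, and without Gsn, the most abundant, to 464, 476 and 549.6. Of the 13 markers 6 lay above floxed, 2 were higher and 2 lower by 1.5-fold or more, and the median log2 ratio was -0.21. Postn, periostin of activated fibroblasts, was the 1 marker higher by 2-fold or more, at 22.5, 47.9 and 24.1.

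**Figure D5:**
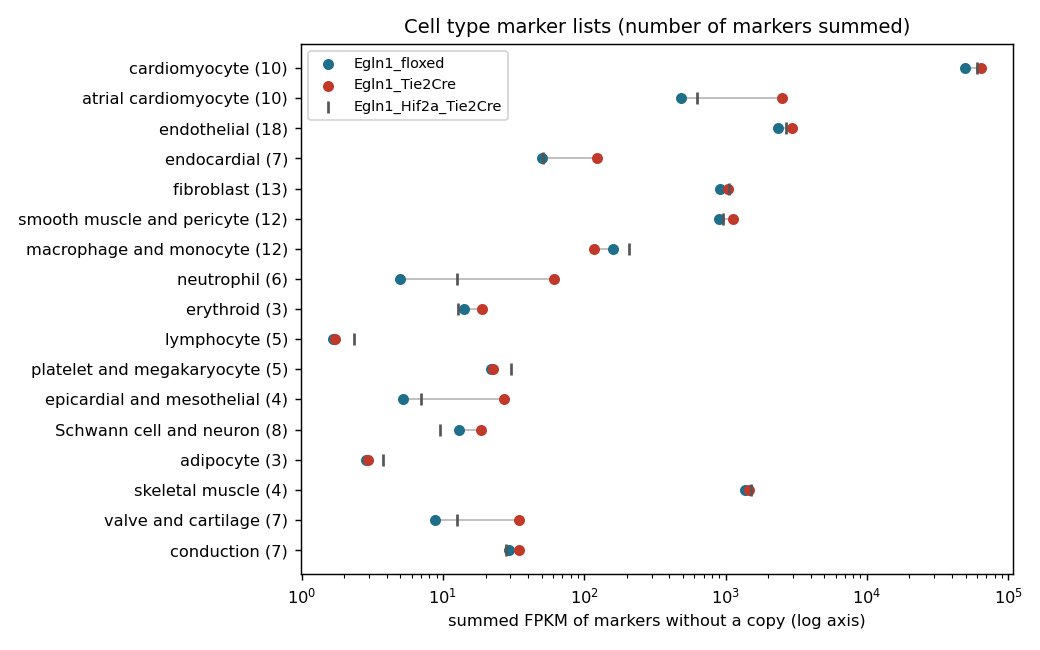
Summed FPKM (log axis) of the copy-free markers of 17 cell type lists, with points for Egln1_floxed and Egln1_Tie2Cre, a bar mark for Egln1_Hif2a_Tie2Cre and the number of markers summed beside each name. The neutrophil, atrial, epicardial and valve lists are several-fold higher in Egln1_Tie2Cre, and the cardiomyocyte, fibroblast and endothelial sums lie within 1.5-fold.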

How the data were processed

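RNA of left ventricles was measured by RNA sequencing in pools of 3 mice, 1 library per genotype, and 2 libraries are compared here. Per the submitters' processing notes, TopHat2 and Cuffdiff were used; the genome build, annotation and tool versions were not given in the sources used here. The authors deposited FPKM values per gene and library, with q-values of their own test, which compares 2 libraries and not 2 genotypes. Depth is unknown, because FPKM keeps no counts, so no interval is given, and p-values were not computed. FPKM of a library was the same within 0.1% in both tables that list it.

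Folds are plain ratios of FPKM, computed here from the deposited values. The log2 ratio is of FPKM + 1, so differences at low FPKM come out smaller than the plain fold. A gene was kept where its 2 values averaged 1 or more. Gene types and transcripts came from GENCODE M21 (14653 of 14827 gene IDs matched), and 21 symbols stored as dates were restored from the IDs. Copies were searched with blastn 2.17.0: a copy shares at least 90% identity over 150 bases and 50% of either transcript, or over 300 bases and 10% of the transcript. Length centring subtracts the running median of 501 copy-free genes. Python 3.11.15, pandas 2.3.3 and numpy 2.4.6 were used, and the counting was tested on simulated data.

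The members, families, marker lists, tests and alternatives were chosen with earlier results of these data known. Named genes are the targeted genes, the 40 largest log2 ratios per direction among copy-free coding genes at an FPKM of 5 or more without exon overlap, up to 4 members per family and direction, pseudogenes with the highest FPKM and their parents, mitochondrial genes and markers. Sex-linked and unnamed genes were left out of the largest ratios. Some genes that meet the rule are not reported here. Alternatives were other pseudocounts, filters, folds and centrings.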

Additional observations from a re-analysis of the deposited data

How the results depend on the processing

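No paired analysis was possible because each group has 1 pooled library; for the same reason no library could be left out. The counts of genes at least 2-fold apart depend on the filter and on the fold. All genes higher and lower numbered 618 and 674, and 1131 and 1343 with no filter, 347 and 394 at a mean FPKM of at least 5, and 1397 and 1486 at 1.5-fold. Copy-free coding genes numbered 294 and 216, and 602 and 618 with no filter, 134 and 69 at a mean FPKM of at least 5, and 920 and 754 at 1.5-fold. A pseudocount of 1 gave 178 and 76 copy-free coding genes. Centring on the copy-free median, centring by length, leaving out exon overlaps and, added after seeing the data, leaving out genes that lie in the span of another (206 and 173) moved these counts by less than 1.5 times. The pseudogene median of 3.56 was 5.50 with a pseudocount of 0.1, 1.04 with no filter and 5.16 at a mean FPKM of at least 5. The median of coding genes with a copy stayed between -0.14 and -0.08. Families with a median of at least 0.2 in size numbered 22, and 34 at a mean FPKM of at least 5, and 17 to 33 under the other settings. No family at that size changed sign under the alternatives run. The 80 named largest ratios stayed past 2-fold under each centring and pseudocount.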
